A study of Danio rerio with 19 samples.

Results

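miR-144 and miR-451 are microRNAs (miRNAs) of developing red blood cells. The custom zebrafish array of this series held 4 probes for them, 1 for each arm of each hairpin. dre-mir-144_l and dre-mir-144_r are the left (5′) and right (3′) arm of miR-144, and dre-mir-451_l and dre-mir-451_r are those of miR-451. They were found by name among the 546 probes for known miRNAs, out of 7604 probes in all. The 546 known probes held 411 distinct sequences. Counts of known probes and of listed probes below can therefore include the same sequence more than once. The pair was chosen for its ratio of Ras over control at 7 days post-fertilization (dpf). Every ratio and level at 7 dpf is therefore given here as a description, without a test. The 7 dpf arrays stayed in the fits of the larval ratios and of the levels on their slide. They helped set the spread behind the errors and p-values of the other groups in those fits.

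Each of the 19 arrays compared RNA of Ras transgenic fish, labeled with Hy3, with RNA of AB wild type fish, labeled with Hy5, and the dyes were never swapped. kita:Ras larvae carried the driver Et(kita:Gal4TA, UAS:mCherry)hmz1, expressed in melanocytes and also in the notochord, with the target Tg(UAS:eGFP-HRASV12)io006. They were studied on 4 arrays at 3 dpf, 3 at 7 dpf and 3 at 14 dpf. Adult melanoma was the tail fin of single kita:Ras fish with tumor tissue, set against the tail fin of single AB wild type fish (3 arrays, age not stated). zic:Ras larvae carried Et(zic4:Gal4TA4, UAS:mCherry)hzm5 with the same oncogene target, which is expressed in brain cells (3 arrays, 3 dpf). HS-Ras larvae carried Tg(hsp70l:EGFP-HRASV12)io3, active in the whole embryo, and were heat-shocked for 30 min at 37 °C at 3 dpf and taken 6 h later (3 arrays). HS-Ras was set against wild type larvae that were heat-shocked likewise, and no other control was. The AB controls lacked the Gal4 driver and mCherry as well as the oncogene. Larval RNA came from pools of 15 whole larvae (5 at 14 dpf), with other parents for each replicate.

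The genes of miR-144 and miR-451 lie next to each other in vertebrates and are copied into 1 primary transcript, which the factor GATA1 switches on in red blood cell precursors. miR-451 is unusual because its short hairpin is cut by the slicer Argonaute 2 and not by Dicer, so that its mature form comes from the left arm and the right arm has no regular product. In zebrafish, miR-451 is needed for red blood cells to mature fully, and miR-144 acts on the globin regulator Klfd. The main product of miR-144 comes from the right arm. In the RefSeq annotation GRCz12tu both genes, named dre-mir-451a and mir144, are direct neighbours on chromosome 5, between eral1 and tbx16l, and all 4 probes matched one of them by name. The array measured small RNAs only, so that no globin or other red blood cell mRNA was available to check the name erythroid against.

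The stretch of RNA that each probe was built to bind is shown here, 5′ to 3′, to tell the 4 targets apart. It is the reverse complement of the 22 bases that each probe holds in duplicate, with bases 2 to 8 of the stretch in capitals. These are the seed where the mature miRNA starts at the first base, which the files do not state.
dre-mir-144_l: aGGAUAUCaucguauacuguaa
dre-mir-144_r: cUACAGUAuagaugauguacua
dre-mir-451_l: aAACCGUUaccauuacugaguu
dre-mir-451_r: uAGUAAUGguaaggguucugcu
No other known probe had the sequence of any of these. The 7 capital bases of dre-mir-144_r occurred at the same place in 1 other known probe, dre-mir-101a_r, and those of the other 3 in none. The arms of miR-451 are complementary over an unbroken run of 11 bases, and those of miR-144 over 9.

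The arrays lay on 3 slides. Slide 1 held kita:Ras replicates 1 and 2 of 3 dpf and all arrays of 7 and 14 dpf, slide 2 held replicates 3 and 4 of 3 dpf and the adult arrays, and slide 3 held zic:Ras and HS-Ras. In the Ras channel, spots of known probes counted as well above background in between 76.8% and 89.5% of cases on slide 1, between 49.0% and 60.1% on slide 2 and between 74.5% and 82.1% on slide 3. The number of arrays per group limits the precision of every mean. All ratios below are log2 values of Ras over control from the deposited dye-normalized signals. All levels are log2 signals of 1 channel, background-corrected with an offset of 50 and normalized over the 19 arrays. They were tested within a slide, except in alternatives that took the 3 dpf arrays of slides 1 and 2. Gaps in level between slides are given as a description. The offset makes differences between dim signals smaller than they were.

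On slide 1 dre-mir-451_l and dre-mir-144_l were close together in kita:Ras and control larvae at 3 dpf. Both were well apart at 7 dpf with the kita:Ras samples higher, and closer together again at 14 dpf. dre-mir-144_r was already apart at 3 dpf, with mean levels of 12.31 in kita:Ras and 11.86 in control larvae, and further apart at 7 dpf. dre-mir-451_r was close together at 7 dpf too, with mean levels of 6.51 and 6.22. For dre-mir-451_l, the arm that gives mature miR-451, the level at 3 dpf was 11.43 and 11.42 in kita:Ras larvae and 11.32 and 11.32 in control larvae. At 7 dpf it was 12.04, 11.85 and 11.89 in kita:Ras larvae, against 10.30, 10.38 and 10.42 in control larvae. At 14 dpf it was 11.04, 11.52 and 11.41 in kita:Ras larvae, against 10.77, 10.46 and 10.61 in control larvae. The kita:Ras and control samples thus lay furthest apart at 7 dpf. There the kita:Ras mean was 0.50 above its own 3 dpf mean and the control mean was 0.96 below its own. This split depended on the normalization. With the processed signals, centered on the median known probe of each array, control larvae were at 3.74 and 3.86 at 3 dpf. At 7 dpf they were at 3.61, 3.69 and 3.76. The kita:Ras larvae were at 3.98 and 4.10 at 3 dpf on that scale, and at 5.44, 5.23 and 5.12 at 7 dpf. In whole larvae, a change in the number of red blood cells and a change in the miRNA per cell cannot be told apart.

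dre-mir-144_r, the main product of miR-144, had a level at 3 dpf of 12.38 and 12.24 in kita:Ras larvae and 11.79 and 11.93 in control larvae. At 7 dpf it was 11.99, 11.96 and 11.87 in kita:Ras larvae and 10.60, 10.71 and 10.50 in control larvae. At 14 dpf it was 10.74, 10.96 and 10.73 in kita:Ras larvae and 10.53, 10.31 and 10.14 in control larvae. The kita:Ras mean moved most between 7 and 14 dpf (-1.13, after -0.37), and the control mean between 3 and 7 dpf (-1.26, before -0.28).

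The other arm, dre-mir-144_l, had the same order of steps in the quantile-normalized levels. Its kita:Ras mean was 8.18 ± 0.15 at 3 dpf (SD, n = 2), 8.14 ± 0.10 at 7 dpf (n = 3) and 7.28 ± 0.07 at 14 dpf (n = 3), and its control mean was 8.02 ± 0.01, 7.18 ± 0.09 and 7.06 ± 0.07. At 7 dpf, on which the pair was chosen, dre-mir-144_l was at 8.22, 8.17 and 8.03 in kita:Ras larvae and at 7.08, 7.23 and 7.24 in control larvae. dre-mir-451_r, the arm of miR-451 with no regular product, was dim, with kita:Ras levels between 6.48 and 6.83 and control levels between 6.11 and 6.68 on slide 1.

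**Figure D1:**
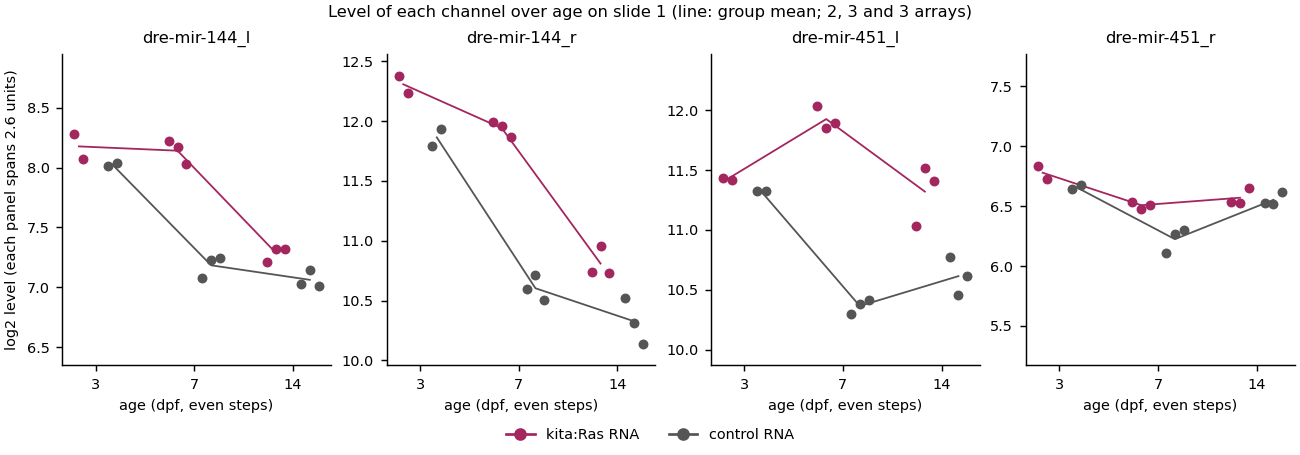
Log2 level of each probe in kita:Ras RNA (left of each pair) and control RNA (right) at 3, 7 and 14 dpf on slide 1, 1 point per array, lines through the group means of 2, 3 and 3 arrays; the ages are evenly spaced. For dre-mir-451_l the kita:Ras points at 7 dpf lie between 11.85 and 12.04 and the control points between 10.30 and 10.42.

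Between 3 and 14 dpf, 2 of the 4 probes fell in kita:Ras larvae and 3 of the 4 fell in control larvae (limma, within slide 1, 3 arrays against 2). The 7 dpf arrays were in these fits too and helped set the spread. In kita:Ras larvae dre-mir-144_r fell by 1.50 ± 0.09 (SE; 2.82-fold, adjusted p = 1.72e-06) and dre-mir-144_l fell by 0.89 ± 0.09 (1.86-fold, adjusted p = 3.80e-05). dre-mir-451_l differed by -0.11 ± 0.13 there (adjusted p = 0.513), and dre-mir-451_r by -0.21 ± 0.06 (adjusted p = 0.0177). In control larvae dre-mir-144_r fell by 1.54 ± 0.12 (2.90-fold, adjusted p = 1.81e-05), dre-mir-144_l fell by 0.96 ± 0.07 (1.95-fold, adjusted p = 1.02e-05) and dre-mir-451_l fell by 0.71 ± 0.09 (1.63-fold, adjusted p = 0.000293). dre-mir-451_r had a difference of -0.11 ± 0.07 (adjusted p = 0.209). Within slide 1 both miR-144 arms were therefore lower at 14 dpf in both kinds of fish. For dre-mir-144_r this rests on the 3 dpf arrays of slide 1. Its mean 3 dpf levels on slide 2 were 8.69 in kita:Ras and 8.77 in control larvae, below those of 14 dpf (10.81 and 10.33). dre-mir-451_l passed the test in control larvae alone. Whether its change differed between the fish is a difference of ratios, tested below.

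A change with age was common on this array. In kita:Ras larvae 256 of 500 known probes tested were called between 14 and 3 dpf (51.2%), 123 of them higher and the others lower (26.6% of those tested). In control larvae 246 of 512 were called (48%), 113 of them lower (22.1%). Under scaling of the A values in place of quantile normalization, 55 probes were called in kita:Ras larvae, 2 of them higher, and 62 in control larvae, 8 of them higher, and of the 4 probes dre-mir-144_l alone was called in each (dre-mir-144_r had -0.95, adjusted p = 0.705, in control larvae). With the processed signals in place of the normexp levels, dre-mir-451_l was no longer called in control larvae (-0.53, adjusted p = 0.143). The median difference of all known probes was -0.04 in kita:Ras larvae and 0.01 in control larvae.

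The ratio of kita:Ras over control at 7 dpf, on which the pair was chosen, was 1.75, 1.50 and 1.47 for dre-mir-451_l and 1.40, 1.25 and 1.37 for dre-mir-144_r. It was 1.40, 1.29 and 0.94 for dre-mir-144_l and 0.99, 1.47 and 0.85 for dre-mir-451_r. All 12 values were above 0. The group means of 1.57, 1.34, 1.21 and 1.10 were the 4 highest among the 496 known probes measured at 7 dpf, and the next, dre-mir-21-2_r, had 0.96. No count against the threshold for calls is given at this age, because the choice of the pair fixed it in part. Net signals of dre-mir-451_r were low, and its mean was 0.28 in place of 1.10 with normexp and loess on the median signals.

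At 3 dpf the kita:Ras ratios were small. dre-mir-144_l had 0.33, 0.06, 0.82 and 0.48, a mean of 0.42 ± 0.12 (SE, n = 4; adjusted p = 0.0541), above 0 on 4 of 4 arrays. With normexp and loess on the median signals its ratios were 0.27, 0.04, 0.30 and -0.009. dre-mir-451_l had 0.10, 0.06, 0.27 and 0.41, a mean of 0.21 ± 0.12 (adjusted p = 0.333), also above 0 on 4 of 4 arrays. dre-mir-144_r had 0.59 and 0.27 on slide 1 but -0.01 and -0.01 on slide 2, a mean of 0.21 ± 0.18 (adjusted p = 0.507). None of these 3 was called, against 3 of 384 known probes (0.781%; 86 at an unadjusted p below 0.05). dre-mir-451_r was not tested at this age because only slide 1 had it well above background; its ratios there were 0.56 and 0.16.

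At 14 dpf 1 of the 4 probes was called. dre-mir-451_l had ratios of 0.28, 1.10 and 0.82 and was higher in kita:Ras larvae by 0.73 ± 0.14 (SE, n = 3; 1.66-fold, adjusted p = 0.00205). dre-mir-144_r had 0.27, 0.68 and 0.61 (mean 0.52 ± 0.21, adjusted p = 0.0762), and dre-mir-144_l had 0.31, 0.33 and 0.57 (mean 0.40 ± 0.14, adjusted p = 0.0412). dre-mir-451_r had 0.31, 0.09 and 0.16 (mean 0.19 ± 0.32, adjusted p = 0.707). All 12 values were above 0, while the median of all tested known probes was -0.16. The share of known probes above 0 on every 14 dpf array was not counted. With normexp and loess on the median signals, dre-mir-451_r had ratios of 0.0097, 0.0075 and 0.035. Of the 500 known probes tested, 21.4% were called, 7 of them higher (1.4%) and 100 lower, and dre-mir-451_l had the sixth highest mean of the 500. Without replicate 2 of 14 dpf its mean was 0.55 (adjusted p = 0.0401), and without replicate 3 it was 0.69 (adjusted p = 0.0134). The spread of the main fit came from all 16 larval arrays, those of 7 dpf among them. In a fit of the 14 dpf arrays alone the adjusted p of dre-mir-451_l was 0.148.

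The ratios at 14 dpf did not differ from those at 3 dpf beyond the threshold. The difference was 0.53 ± 0.19 for dre-mir-451_l (adjusted p = 0.178), 0.31 ± 0.28 for dre-mir-144_r (adjusted p = 0.552) and -0.02 ± 0.18 for dre-mir-144_l (adjusted p = 0.963). None of the 382 known probes tested for this difference was called (0%, limma; 74 at an unadjusted p below 0.05). With the replicate number as a block 1 of 382 was called, and the difference of dre-mir-451_l was 0.59 ± 0.22 (adjusted p = 0.237). That dre-mir-451_l was called at 14 dpf and not at 3 dpf is therefore not shown to be a change with age.

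In adult fish the mature arm of miR-451 was on the other side of 0, without passing the test. dre-mir-451_l had ratios of -0.11, -0.88 and -0.97 in melanoma over control fin, a mean of -0.65 ± 0.31 (SE, n = 3; adjusted p = 0.126). dre-mir-144_r had -0.01, 0.13 and 0.20 (mean 0.11 ± 0.27, adjusted p = 0.786), and dre-mir-144_l had 0.32, -0.29 and -0.08 (mean -0.02 ± 0.29, adjusted p = 0.971). Each miR-144 arm thus had values on both sides of 0. dre-mir-451_r had -1.26, -1.81 and -0.68, all below 0, but it was well above background in no melanoma sample and in 2 of 3 control fins. Its mean levels were 6.46 in melanoma and 6.62 in control fin, a point estimate of 1.12-fold, with 6.11 in both for replicate 3. The fit of its ratios gave an adjusted p of 0.0241. None of the 4 was called, against 29 of 346 known probes (8.38%; 14 higher and 15 lower, or 14 and 10 with each array centered). The joint fit of all 19 arrays called dre-mir-451_l and dre-mir-451_r lower, among 216 known probes called in all.

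The miRNAs listed for other cells moved beside these adult ratios, and their part was not tested. Other red blood cell miRNAs had a median of 0.28 over 11 tested probes, with values up to 0.87; 1 fell, dre-mir-22b_l with -2.12 ± 0.35 (adjusted p = 0.00759), and 0 rose. White blood cell miRNAs had a median of -1.27, and 1 of 6 fell. The summed log2 level of the white blood cell list lay between 11.08 and 11.55 in melanoma and between 10.62 and 12.15 in control fin, so that the samples overlapped. Medians were -1.56 for epithelial, -1.17 for neural and -1.09 for muscle miRNAs, with 1 of 11, 1 of 16 and 1 of 13 that fell, and -0.57 for blood vessel miR-126 with 0 of 4 called. miR-204 of pigment cells had a median of 2.69, and 3 of 6 rose; its summed level lay between 15.06 and 15.59 in melanoma and between 11.41 and 11.97 in control fin. The median over all known probes was -0.18, and of the 346 tested 14 rose and 15 fell.

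The other Ras models at 3 dpf gave ratios near 0. In zic:Ras larvae dre-mir-451_l had 0.20, -0.18 and -0.18 (mean -0.05 ± 0.14, adjusted p = 0.970), dre-mir-144_l had 0.02, -0.02 and -0.09 (mean -0.03 ± 0.14, adjusted p = 0.980) and dre-mir-144_r had 0.64, 0.52 and -0.42 (mean 0.25 ± 0.21, adjusted p = 0.706). In HS-Ras larvae dre-mir-451_l had -0.12, -0.14 and -0.02 (mean -0.09 ± 0.14, adjusted p = 0.826), dre-mir-144_l had 0.21, -0.12 and 0.17 (mean 0.09 ± 0.14, adjusted p = 0.826) and dre-mir-144_r had -0.76, 0.19 and -0.29 (mean -0.29 ± 0.21, adjusted p = 0.546). None was called in either model, against 5 of 454 known probes in zic:Ras (1.1%; 70 at an unadjusted p below 0.05) and 8 of 452 in HS-Ras (1.77%; 80). dre-mir-144_r had the widest spread between replicates of the 3, with values on both sides of 0 in both models.

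dre-mir-451_r was not tested in zic:Ras, where neither channel had it well above background; its ratios were 1.65, 0.73 and -0.54. In HS-Ras its ratios were -0.20, 0.76 and -0.11 (mean 0.15 ± 0.32, adjusted p = 0.886), and it was well above background on 2 of 3 arrays in the control channel and on none in the Ras channel. The levels there gave the opposite sign, with control larvae higher by a point estimate of 1.07-fold (mean levels of 6.18 in HS-Ras and 6.28 in control). The test of a difference between the 3 models at 3 dpf called none of the 3 probes tested (adjusted p = 0.352 for dre-mir-144_l, 0.479 for dre-mir-144_r and 0.582 for dre-mir-451_l), against 1 of 376 known probes (0.266%; limma, 53 at an unadjusted p below 0.05).

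**Figure D2:**
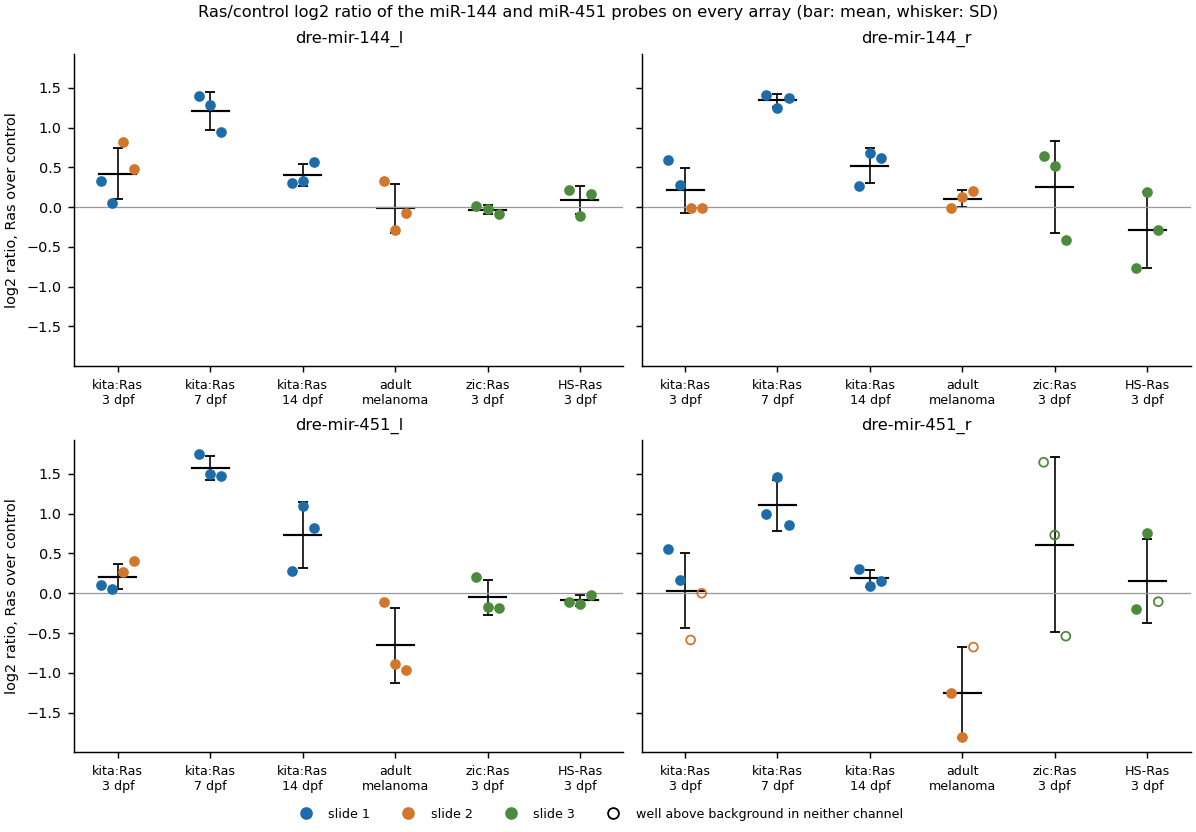
Ras over control as a log2 ratio for each of the 4 probes, 1 point per array, colored by slide, with the group mean (bar) and SD (whisker) of 4 arrays for kita:Ras 3 dpf and 3 for each other group; open points were well above background in neither channel. The 7 dpf points lie between 0.85 and 1.75 in all 4 panels, and the adult points of dre-mir-451_l between -0.97 and -0.11.

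Adult fin was compared with 3 dpf larvae on slide 2, which differ in tissue as well as in age. dre-mir-451_l had levels of 12.43, 12.15 and 12.65 in control fin, against 10.65 and 10.47 in control larvae. It was higher in control fin by 1.85 ± 0.25 (SE; 3.60-fold, adjusted p = 0.000706). In the Ras channel it was 12.05, 11.26 and 11.71 in melanoma, against 10.80 ± 0.15 in kita:Ras larvae (SD, n = 2), a difference of 0.87 ± 0.31 (adjusted p = 0.0348) that was not called. Its size depended on the normalization: with the processed signals it was 3.19 in the Ras channel (adjusted p = 8.59e-05) and with scaled A values the control difference was 2.72 (adjusted p = 0.239). Without replicate 3 or replicate 4 of 3 dpf, which leaves 1 larval array, the control difference was 1.94 (adjusted p = 0.0111) and 1.75 (adjusted p = 0.0140).

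The other probes were not called between adult fish and larvae. In the control channel dre-mir-144_l was at 8.58, 7.98 and 7.19 in fin against 8.52 and 8.46 in larvae (difference -0.57 ± 0.41, adjusted p = 0.255), and dre-mir-144_r at 9.60, 8.99 and 8.09 against 8.65 and 8.89 (0.12 ± 0.44, adjusted p = 0.819). In these levels the adult fish spread over more than 1 log2 unit for each miR-144 arm, with replicate 3 lowest. Its array had 514 flagged spots, more than any other array. With the processed signals control fin was at 1.19, 0.70 and 0.70 for dre-mir-144_l and 2.59, 2.09 and 2.56 for dre-mir-144_r. Melanoma was at 2.10, 0.69 and 1.03 for dre-mir-144_l and 3.15, 2.51 and 3.17 for dre-mir-144_r. In the Ras channel the differences of the quantile-normalized levels were -0.74 ± 0.45 for dre-mir-144_l (adjusted p = 0.185) and 0.30 ± 0.35 for dre-mir-144_r (adjusted p = 0.480). dre-mir-451_r was well above background in 2 of 3 control fins and neither larval control. Its point estimate was 1.33-fold higher in control fin and was not called (adjusted p = 0.304). Of all known probes, 201 of 405 were called in the control channel (49.6%), 84 of them higher (20.7%) and 117 lower, and 191 of 340 in the Ras channel (56.2%).

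Lists of other cell types moved between control fin and control larvae too, and their part in the level of dre-mir-451_l was not tested. White blood cell miRNAs had a median difference of 2.02 with 2 of 6 that rose, blood vessel miR-126 of 1.17 with 2 of 4, muscle miRNAs of 1.13 with 5 of 13, epithelial miRNAs of 0.74 with 2 of 11 and other red blood cell miRNAs of 0.32 with 2 of 10; 0 fell in these lists. Neural miRNAs fell in 22 of 22 cases (median -4.31) and liver miR-122 in 2 of 2 (median -2.21). The summed log2 level of the white blood cell list lay between 10.62 and 12.15 in control fin and between 9.72 and 9.76 in control larvae, and that of the other red blood cell list between 14.64 and 14.66 in control fin and between 14.13 and 14.20 in control larvae. The direction of these lists was read from the quantile-normalized levels, under which 84 probes were higher and 117 lower; with the processed signals 204 of 321 called probes were higher.

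**Figure D3:**
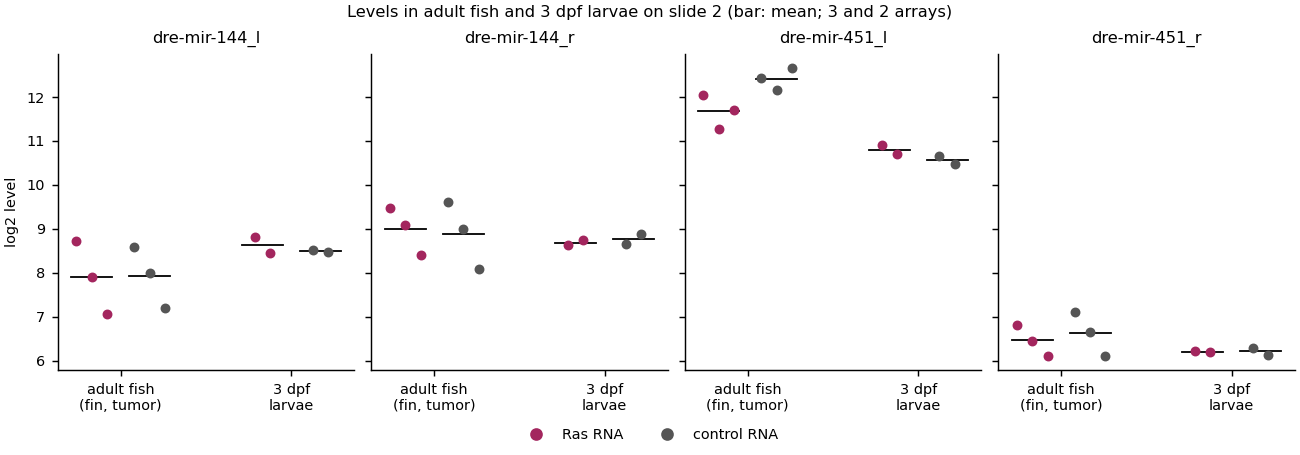
Log2 level of each probe in adult fish (3 arrays; melanoma in the Ras channel, fin in the control channel) and 3 dpf larvae (2 arrays) on slide 2, with bars at the means. For dre-mir-451_l control fin lies between 12.15 and 12.65 and control larvae between 10.47 and 10.65.

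Heat-shocked wild type larvae were compared with wild type larvae without heat shock through the control channels of HS-Ras and zic:Ras on slide 3. dre-mir-451_l was at 10.56, 10.55 and 10.58 with heat shock and 10.08, 10.31 and 10.39 without. The difference of 0.30 ± 0.09 was not called (adjusted p = 0.130). None of the 454 known probes was called (0%, limma), and 73 had an unadjusted p below 0.05. dre-mir-144_r had 9.19, 8.75 and 9.08 with heat shock and 8.53, 8.39 and 9.04 without (0.35 ± 0.19, adjusted p = 0.497). dre-mir-144_l differed by -0.08 ± 0.15 (adjusted p = 0.860), and dre-mir-451_r, with a point estimate 1.06-fold higher with heat shock, had an adjusted p of 0.588. In the Ras channel, HS-Ras minus zic:Ras was 0.26 ± 0.06 for dre-mir-451_l (adjusted p = 0.0571), -0.11 ± 0.12 for dre-mir-144_r (adjusted p = 0.640) and 0.01 ± 0.13 for dre-mir-144_l (adjusted p = 0.983), and 5 of 446 known probes were called (1.12%). With scaled A values the difference of dre-mir-451_l had the opposite sign for both kinds of RNA (-0.45 for Ras, -0.41 for control).

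The right arm of miR-144 stood apart between slides. In control larvae of 3 dpf without heat shock, the level of dre-mir-144_r on slide 1 was 3.09 above that on slide 2 and 3.21 above that on slide 3. Of the 347 known probes well above background in all these samples, 1 lay further above its slide 2 level on slide 1. Against slide 3, 0 lay further above. Shifts in the other direction were not counted, and the median shifts were -0.32 and -0.19. In scanner units the net control signal of dre-mir-144_r was between 7137 and 7257 on slide 1, between 60.3 and 94.8 on slide 2 and between 289 and 491 on slide 3. The median net control signal of known probes was 373 and 338 on those arrays of slide 1 and 31 and 41.25 on those of slide 2. On those of slide 3 it was 175, 171 and 168, so part of the gap in scanner units was general. Both channels shared this: the kita:Ras level at 3 dpf was 12.31 ± 0.10 on slide 1 and 8.69 ± 0.08 on slide 2 (SD, n = 2 each). dre-mir-144_l shifted by -0.47 and 0.01, and dre-mir-451_l by 0.76 and 1.06. Slide 2 was read on another scanner model than slides 1 and 3, and slide 3 without the extended dynamic range setting. Slide 1 also held other pools of larvae than slides 2 and 3, so slide, scanning and parents cannot be told apart. The comparison of 14 with 3 dpf used slide 1 alone; over the 3 dpf arrays of both slides the difference of dre-mir-144_r was 0.31 in kita:Ras larvae and 0.01 in control larvae.

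**Figure D4:**
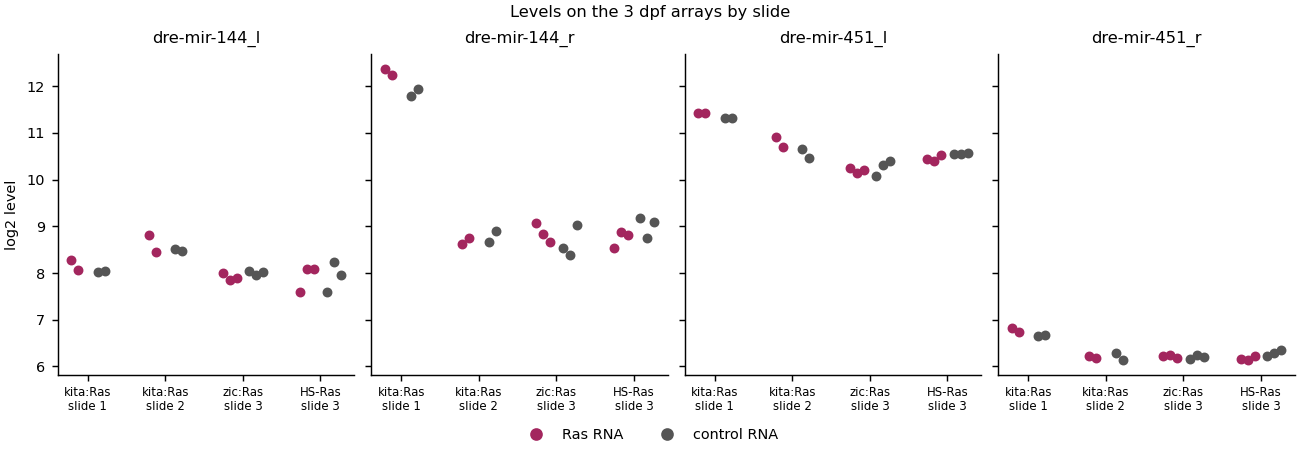
Log2 level of each probe in Ras RNA (left of each pair) and control RNA (right) on the 3 dpf arrays, by line and slide, 1 point per array. The points of dre-mir-144_r lie between 11.79 and 12.38 on slide 1 and between 8.39 and 9.19 on slides 2 and 3.

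Across the 19 arrays the ratios of the 4 probes went together to different degrees, with the 7 dpf arrays carrying much of it. The arrays share dyes and slides, so the correlations are given as a description. Pearson's r was 0.88 between dre-mir-144_l and dre-mir-451_l, 0.74 between dre-mir-144_r and dre-mir-451_l and 0.64 between the arms of miR-144. Over the 16 arrays without 7 dpf it was 0.69, 0.36 and 0.06. The arms of miR-451 had 0.62 over all arrays and 0.45 without 7 dpf. Among 393 other known probes measured well above background on at least 15 arrays, the most similar to dre-mir-451_l were dre-mir-26a-3_l, dre-mir-26a-1_l and dre-mir-26a-2_l (r = 0.66, 0.66 and 0.65), which had mean ratios of 0.08, 0.07 and 0.07 at 7 dpf. Without the 7 dpf arrays, on which the pair was chosen, their r was 0.60, 0.63 and 0.60, beside 0.69 for dre-mir-144_l. Those most similar to dre-mir-144_l were dre-mir-219-3_r, dre-mir-145_l and dre-miR-145_l (0.58, 0.56 and 0.54). For dre-mir-144_r they were dre-mir-739_l, dre-mir-10c_r and dre-mir-200c_l (0.62, 0.53 and 0.40), and for dre-mir-451_r dre-miR-219_l, dre-mir-219-1_l and dre-mir-219-2_l (0.83, 0.81 and 0.81). The rule of at least 15 arrays was not applied to the 4 probes themselves. dre-mir-451_r was well above background in neither channel in zic:Ras and on the 3 dpf arrays of slide 2, which limits its r values.

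Other miRNAs that are abundant in red blood cells of mammals (16 probes of miR-15, miR-16, miR-22 and miR-92) are described at 7 dpf too. The 12 measured had a median ratio of 0.07 and a range from -0.09 to 0.82, and all known probes had a median of -0.01. The 4 probes of miR-144 and miR-451 had a median of 1.28, but they were chosen on these values, which fixed the contrast in part. The largest of the 12 other red blood cell probes was dre-mir-22b_l with 0.82 ± 0.23. At 14 dpf 0 of 12 were called, with a median of 0.04. In the control channel 2 of 14 rose and 2 fell between 14 and 3 dpf, with a median of -0.19, against -0.84 for the 4 probes of the pair. Of all 512 known probes tested there, 133 rose and 113 fell. The miRNAs of other cell types that were listed moved as follows beside the pair, and their part in the results was not tested.

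White blood cell miRNAs (miR-142, miR-150, miR-155 and miR-223; 8 probes) had a summed log2 level in control larvae between 10.20 and 10.21 at 3 dpf, 10.87 and 10.93 at 7 dpf and 11.35 and 11.44 at 14 dpf on slide 1, the opposite order to the miR-144 probes. Of the 7 tested between 14 and 3 dpf, 4 rose and 0 fell in control larvae, against 133 and 113 of all 512 known probes. Their ratio at 7 dpf had a median of 0.09 over 7 probes, and at 14 dpf 1 of 7 fell, dre-mir-223_l, with -1.45 ± 0.28 (adjusted p = 0.00213). Blood vessel miR-126 (4 probes) had median ratios of -0.03 at 7 dpf and -0.09 at 14 dpf, with 0 called at 14 dpf. miR-204 of pigment cells (6 probes) had a median ratio of 0.57 at 7 dpf, and 3 of 6 rose at 14 dpf (median 0.41). At 14 dpf its summed level lay between 12.19 and 12.75 in kita:Ras larvae and between 11.85 and 12.10 in control larvae. At 14 dpf muscle, neural and epithelial miRNAs had 7 of 16, 10 of 22 and 4 of 16 tested probes that fell and 0 that rose. Of all 500 known probes tested at 14 dpf, 100 fell and 7 rose.

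**Figure D5:**
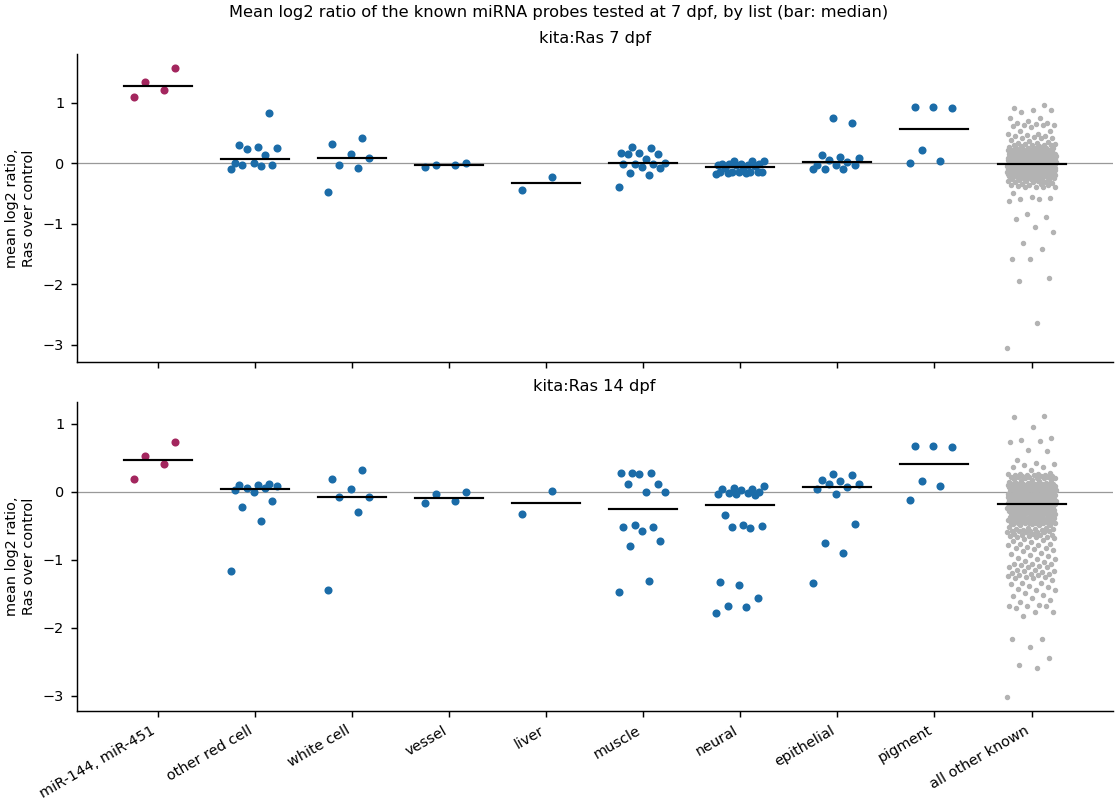
Mean log2 ratio of kita:Ras over control at 7 dpf (top) and 14 dpf (bottom) for the 496 known probes tested at 7 dpf, grouped by list, 1 point per probe, bars at the medians. The 4 probes of miR-144 and miR-451 lie between 1.10 and 1.57 at 7 dpf, on which they were chosen, and between 0.19 and 0.73 at 14 dpf.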

How the data were processed

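Small RNA of 19 samples of Ras fish and 19 of control fish was measured on 2-color arrays. For each spot the authors deposited scanner output of Agilent Feature Extraction: intensity in both channels with local background, processed signals, flags, and the log10 ratio of red (control) over green (Ras) after dye normalization. The deposited value table holds the same log10 ratios. Pools are labeled as separate replicates, so p-values measure the spread between pools or, in adults, fish. The file headers give version 10.7.3.1, the submitters' processing notes 9.5.3.1.

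The ratio was turned into log2 Ras over control. Ratios that the software had set to 0 were kept. Spots flagged as outliers were dropped before the mean of both spots was taken. Testing required a signal well above background in at least 1 channel on most arrays of the group. Group means were tested against 0, two-sided, with limma 3.58.1 in R 4.3.3, in 1 fit of the 16 larval arrays (known and predicted probes) and 1 of the 3 adult arrays. The threshold for a call was an adjusted p (Benjamini-Hochberg) under 0.01 over the known probes tested and, for ratios and levels, a linear fold above 1.2. Single-channel levels came from the median intensity (normexp with offset 50, loess, Aquantile over all arrays) and were tested between groups of 1 slide with limma; the adjusted p is that of this fit. Differences between ages used a contrast and those between models limma's F test. For a probe well above background on 1 side only, the fold sets the brighter channel's or group's mean against a value per array. That value is the higher of the lowest signal well above background and the dim probe's own. This fold is a point estimate without a measure of error, and between channels it stays open to dye bias. Simulated data with known changes were recovered with 0 calls of the wrong sign, which is a check of the code and not of the results above. Python 3.11.15, numpy 2.4.6, pandas 2.3.3 and matplotlib 3.10.9 read the files and drew the figures.

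The members and lists were chosen with earlier results of these data known, and the 4 members are named by rule, with, for each, the 3 known probes of most similar ratio, and up to 2 probes of a list with the largest mean ratio; dre-mir-21-2_r was added after its value was seen. Alternatives were other background correction and normalization, centering, the value table, zeros left out, other filters and thresholds, other fits, the replicate block, the slide, and each replicate left out. Deviations from the group means of same-numbered arrays of kita:Ras at 14 and 3 dpf correlated by 0.17, 0.15 and 0.13 over known probes, all above 0.1. The labels state no pairing. Over all pairs of larval groups 10 of 30 such correlations were over 0.1 (range -0.36 to 0.37), so a pairing is not shown. Blocked values are given for the difference between 14 and 3 dpf where a count changed.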

Additional observations from a re-analysis of the deposited data

Results flagged for a closer look

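For dre-mir-451_l every adult array lay on the other side of 0 from every kita:Ras array at 3 and 14 dpf, and for dre-mir-451_r from every one at 14 dpf, which drew a closer look. These differences were not tested, because adult and larval arrays were fitted apart. The share of known probes that part in the same way was not counted. In adult melanoma 180 of 346 known probes had an unadjusted p below 0.05 (limma), so such a pattern may be common. The mean log2 ratio of dre-mir-451_l in adult melanoma minus that in kita:Ras at 3 dpf was -0.86, with 3 of 3 adult arrays below 0 and 4 of 4 larval arrays above. Its mean in adult melanoma minus that at 14 dpf was -1.39, with 3 of 3 arrays above 0 at 14 dpf. For dre-mir-451_r the difference between adult melanoma and 14 dpf was -1.44, but its ratios at 3 dpf lay on both sides of 0 and its melanoma signal was well above background on 0 of 3 arrays. Adult arrays lay on slide 2 and those of 14 dpf on slide 1, and adult tissue was fin, so age, tissue and slide cannot be told apart. No kita:Ras array at 3 dpf was an outlier for any of the 4 ratios by Dixon's test (highest ratio of gap to range 0.526).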

How the results depend on the processing

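Over 14 comparisons, the number of the 4 probes called stayed within 1.5 times its value in 193 of 213 alternatives and moved further in 20; of 661 alternatives for single probes, 40 changed sign, and 0 of those met the adjusted p for a call. For the ratio at 3 dpf the number called was 0, and 1 at an unadjusted p under 0.01. At 7 dpf the number is left out because the pair was chosen there, although the 14 comparisons include that age. At 14 dpf it was 1, but 2 with each array centered (dre-mir-144_l 0.55, adjusted p = 0.00625) or at an adjusted p under 0.05, 0 with the comparison fitted alone, and between 0 and 1 with a replicate left out. In adult melanoma it was 0, but 1 at an adjusted p under 0.05 or an unadjusted p under 0.01, and 2 with all 19 arrays in 1 fit. For control levels of 14 against 3 dpf it was 3, and 1 with scaled A values or with the 3 dpf arrays of both slides. For control levels of adult fin against 3 dpf it was 1, but 3 with processed signals, 0 with scaled A values and between 0 and 1 with a replicate left out. For Ras levels it was 2 between 14 and 3 dpf, and 1 with scaled A values or both slides, and 0 between adult and 3 dpf, but 2 with processed signals and 1 at an adjusted p under 0.05. The cause of these moves was not tested. Without leaving out replicates, the alternatives called between 0 and 40 known probes in kita:Ras at 3 dpf, 0 and 38 at 7 dpf, 0 and 158 at 14 dpf, 0 and 216 in adult melanoma, 0 and 23 in zic:Ras, 0 and 52 in HS-Ras, 0 and 21 for 14 against 3 dpf and 0 and 23 between models. For levels these were 55 to 296 (Ras) and 62 to 278 (control) for 14 against 3 dpf, 0 to 272 and 0 to 321 for adult against 3 dpf, and 0 to 26 and 0 to 27 for HS-Ras against zic:Ras.

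Signs changed as follows. With normexp and loess, dre-mir-144_l in HS-Ras was -0.0061, dre-mir-451_r there -0.11, and the 14 minus 3 dpf difference of dre-mir-144_l 0.072; at 7 dpf dre-mir-144_l was 0.96 and dre-mir-451_r 0.28. With arrays centered, dre-mir-144_l was 0.059 in adult melanoma and its 14 minus 3 dpf difference 0.082, which was 0.016 with the slide as a random block and 0.21 with slide 1 alone. At 3 dpf dre-mir-144_r was -0.0089 on slide 2. With both slides, control levels of 14 minus 3 dpf were 0.0084 for dre-mir-144_r and 0.12 for dre-mir-451_r, Ras levels 0.31 for dre-mir-144_r, 0.21 for dre-mir-451_l and 0.080 for dre-mir-451_r, and adult minus 3 dpf for dre-mir-144_r -1.51 (Ras) and -1.43 (control). With processed signals, Ras levels of 14 minus 3 dpf were 0.50 for dre-mir-451_l and 0.029 for dre-mir-451_r, and adult minus 3 dpf for dre-mir-144_l 0.085 (Ras) and 0.43 (control). With scaled A values, HS-Ras minus zic:Ras was -0.29 for dre-mir-144_l and -0.45 for dre-mir-451_l (Ras), -0.12 for dre-mir-144_r and -0.41 for dre-mir-451_l (control), and 14 minus 3 dpf 0.26 for dre-mir-451_l (Ras). With a replicate left out, ranges crossed 0 for dre-mir-451_l in zic:Ras (-0.18 to 0.012), dre-mir-144_l in adults (-0.19 to 0.12) and between 14 and 3 dpf (-0.14 to 0.11), control levels of dre-mir-144_r in adults (-0.23 to 0.52) and dre-mir-144_l in HS-Ras (-0.23 to 0.085), and Ras levels of dre-mir-451_l at 14 dpf (-0.20 to 0.037), dre-mir-144_l in HS-Ras (-0.080 to 0.18) and dre-mir-144_r there (-0.20 to 0.0029).

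Replicate numbers met the criterion for pairing in the groups of 14 and 3 dpf of kita:Ras, where the block changed no call of the 4 probes. Over all pairs of larval groups, 10 of 30 correlations between same-numbered samples were over 0.1 (range -0.36 to 0.37). In no other pair of groups were all 3. Whether same-numbered samples shared anything but a number is not stated in the labels. With the replicate block, 7 known probes were called for kita:Ras at 3 dpf against 3 without it. At 14 dpf 1 of the 4 probes was called (dre-mir-451_l 0.80, adjusted p = 0.00685) and 88 known probes were. In zic:Ras dre-mir-451_l was 0.013.

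Dim signal limits dre-mir-451_r, and 2 or 3 arrays per group limit every level.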
